A study of Mus musculus with 6 samples.

Results

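Integrins are the cell surface receptors that fasten a cell to its surroundings, each made of 1 α and 1 β subunit, and laminins are the basement membrane proteins, built of an α, a β and a γ chain, that many of them bind. The genes described here are the integrin subunits (Itga and Itgb genes) and the laminin chains (Lama, Lamb and Lamc genes). They were picked with earlier results of these data known, by a rule on gene names. That rule took 38 of the 29940 genes in the deposited table. One of these, Itgb3bp, encodes a centromere protein and not an integrin. The 36 subunits described are 17 integrin α, 9 integrin β and 10 laminin genes.

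The material was colon organoids, small epithelial bodies raised in Matrigel (a gel of basement membrane proteins, laminin among them) from crypts of mice of the inbred strain C57BL/6J, in 2 groups of 3 libraries. In the TNF group, organoids cultured for 2 days received tumour necrosis factor alpha (TNFα), an inflammatory cytokine, for 24 hours, and in the Ctrl group they were incubated alone over the same time. The TNFα dose and the age of the animals are not known from the sources used here, nor is it known whether libraries of 1 group derive from different mice or cultures. The p-values therefore describe library-to-library spread, part or all of which could be technical.

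In the intestine, epithelial cells rest on a basement membrane and hold on to it through integrins. The pair encoded by Itga6 and Itgb4 binds laminin and anchors hemidesmosomes, whose laminin contains the chains of Lama3 and Lamb3. The pair of Itga2 and Itgb1 binds collagen and laminin. The pair of Itgav and Itgb6 is an epithelial receptor known for releasing active TGF-β from its latent form, and it becomes more abundant in wounded and inflamed epithelium. Integrins of leukocytes, such as the products of Itgal, Itgam, Itgax and Itgb2, are background signs of immune cells in an epithelial sample.

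Levels are given as FPKM, fragments scaled to transcript length in kilobases and to library size, so that genes of different length can be compared. The low values put the depth at about 14100000 to 16200000 fragments per library, and 1 FPKM in a transcript of 1 kilobase then stands for 14.1 to 16.2 fragments. The 7 colon epithelium markers summed to 3542 to 3715 FPKM in TNF libraries and 3745 to 4246 FPKM in Ctrl libraries, so the labelled tissue carried its markers in both groups. Of these 7, Krt8 and Krt18 rose, Car1 and Cdx2 fell and 3 did not pass. A list of 11 genes known as markers of glia and neurons was added after their values were seen, so their shared direction follows from the choice and is given as a description. They summed to 62.3 to 68.1 FPKM in TNF libraries and 26.3 to 30.7 FPKM in Ctrl libraries, with the myelin gene Mbp at 34.4 ± 1.74 FPKM in TNF and 19.1 ± 1.19 FPKM in Ctrl. Which cells carried this RNA, and its part in the subunit values below, was not tested; Itgav, Itgb8, Itga7 and Lama4 are among the subunits with known expression in neural tissue or its vessels. In bulk samples such as these, fewer cells of a type and less RNA per cell cannot be told apart.

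The organoids given TNF had higher RNA levels of the collagen receptor subunit Itga2, of both subunits of the αvβ6 receptor (Itgav and Itgb6), and of Lama3 and Lamb3, the genes of an α and a β chain of hemidesmosomal laminin. Itgb5, the other β partner of αv with over 1 FPKM apart from Itgb1, was the 1 tested subunit that fell. These calls were not equally firm under alternative fits (other filters, scalings or left-out libraries, among others). Those of Itga2, Itgav and Itgb6 held in all 15. The calls of Lamb3, Itgb5 and Lama3 were lost in 9 of 15, 8 of 14 and 4 of 14. The most abundant subunits, Itgb1, Itga6, Itgb4 and Itga3, did not pass the test. Of the 36 subunits, 16 reached 1 FPKM when averaged across all 6 libraries and were tested with limma on log2(FPKM + 1); 5 rose, 1 fell and 10 did not pass (37.5% called). The groups did not overlap in 9 of the 16, against 41.4% of all tested genes. Among all 12350 tested genes, 24.0% were called at an adjusted p below 0.05, 12.9% higher and 11.1% lower with TNF. The median log2 change of the tested subunits was 0.10, against -0.0010 for all tested genes, a description of the 16 and not of all members.

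**Figure D1:**
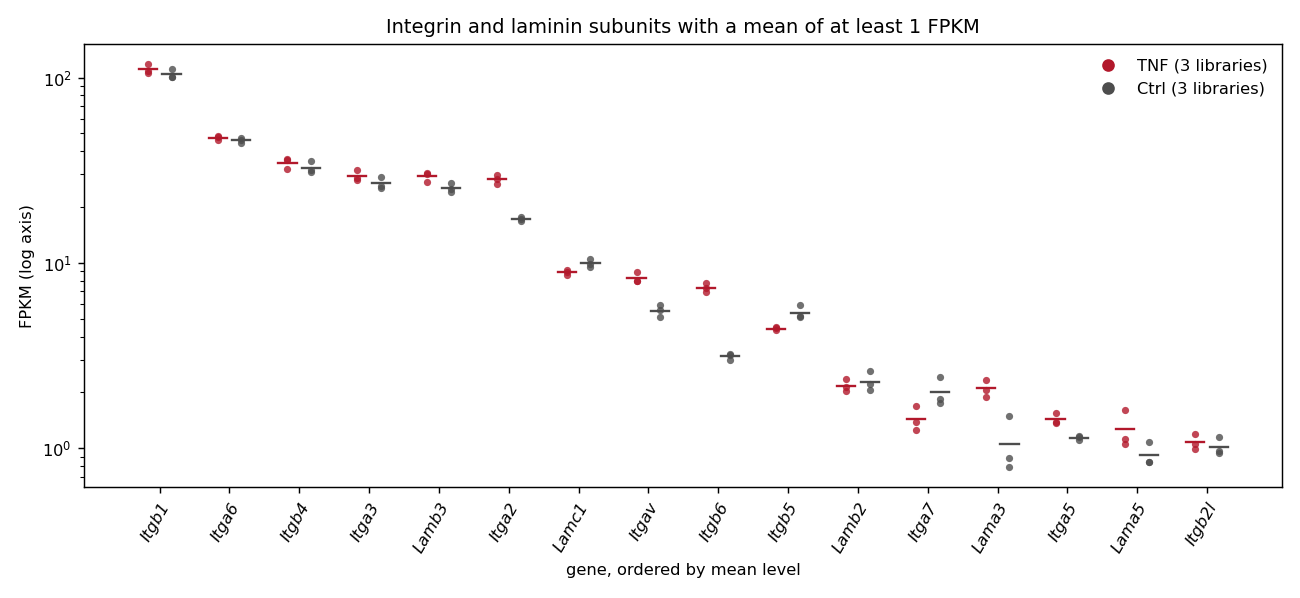
FPKM (log axis) of the 16 tested subunits, ordered by mean level, with 1 point per library, a bar at the mean of the 3 libraries, and TNF (red) left of Ctrl (grey) for each gene. Itgb1 is the most abundant subunit in both groups, and the groups stand apart most clearly for Itga2, Itgav and Itgb6.

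Itgb1, Itga6, Itgb4 and Itga3, which encode subunits of laminin receptors, held the highest levels and did not pass the test. Itgb1, the common β subunit, was at 118, 108 and 106 FPKM in TNF libraries, against 101, 112 and 101 FPKM in Ctrl libraries (log2 change 0.08, limma adjusted p = 0.381). It made up 69.2% ± 1.09 of the summed FPKM of the 9 β genes in TNF and 70.6% ± 1.75 in Ctrl (mean ± SD over 3 libraries per group, here and throughout). Itga6 averaged 47.3 ± 1.15 FPKM in TNF and 45.8 ± 1.54 FPKM in Ctrl (log2 change 0.04, limma adjusted p = 0.495). Its hemidesmosome partner Itgb4 averaged 34.6 ± 2.28 FPKM in TNF and 32.7 ± 2.43 FPKM in Ctrl (log2 change 0.08, limma adjusted p = 0.434). For each of these 3 genes the groups overlapped. Itga3, whose protein pairs with that of Itgb1 as a second laminin receptor, averaged 29.4 ± 1.88 FPKM in TNF and 26.9 ± 2.00 FPKM in Ctrl (log2 change 0.13, limma adjusted p = 0.215), and here too the groups overlapped. Exons of Itgb4 overlap those of B230344G16Rik over 7.76% of their length, so a small part of its value can come from that gene.

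Itga2 (ENSMUSG00000015533, chromosome 13, 114833081 to 114932100 in GRCm38, minus strand) had the largest log2 change of the 6 tested α subunits. It was at 29.7, 26.6 and 28.2 FPKM in TNF libraries, against 17.2, 17.6 and 16.8 FPKM in Ctrl libraries. The groups were far apart, with the lowest TNF library well above the highest Ctrl library. The ratio of means was 1.64 and the log2 change 0.68 (SE 0.05, limma adjusted p = 8.32e-05). Its share of the summed FPKM of the 17 α genes was 23.6% ± 0.819 in TNF and 17.1% ± 0.808 in Ctrl, while that of Itga6 was 39.7% ± 1.24 in TNF and 45.4% ± 1.12 in Ctrl. Itga1, the gene of another collagen-binding α subunit, lies 20996 bases from Itga2 on the same strand and stayed under 1 FPKM. It averaged 0.547 ± 0.0415 FPKM in TNF and 0.638 ± 0.0298 FPKM in Ctrl, with the 3 TNF libraries below the 3 Ctrl libraries. Of these neighbours, Itga2 was at 48.6 to 53.1 times the level of Itga1 in TNF libraries and 25.6 to 28.5 times in Ctrl libraries. An exact permutation test of 3 against 3 libraries cannot go below p = 0.1, so such ratios within a library are given as a description.

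Among the αv subunits, Itgav and Itgb6 rose and Itgb5 fell. Itgb6 (ENSMUSG00000026971, chromosome 2, 60598292 to 60722643, minus strand) had the largest log2 change of the 16 tested subunits. It was at 7.77, 7.33 and 6.96 FPKM in TNF libraries, against 2.97, 3.23 and 3.19 FPKM in Ctrl libraries (ratio of means 2.35, log2 change 1.02, SE 0.06, limma adjusted p = 2.83e-05). Every TNF library held more than every Ctrl library by a wide margin. Itgav (ENSMUSG00000027087, chromosome 2, 83724397 to 83806916, plus strand), its only known α partner, was at 8.89, 7.95 and 8.0 FPKM in TNF libraries, against 5.09, 5.93 and 5.54 FPKM in Ctrl libraries. The ratio of means was 1.5 and the log2 change 0.51 (SE 0.07, limma adjusted p = 0.0014); exons of Gm13684 overlap 5.9% of its exon length.

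Itgb5 (ENSMUSG00000022817, chromosome 16, 33829665 to 33949338, plus strand), which forms the vitronectin receptor with αv, went the other way. It was at 4.48, 4.34 and 4.44 FPKM in TNF libraries, against 5.16, 5.93 and 5.07 FPKM in Ctrl libraries (log2 change -0.23, SE 0.06, limma adjusted p = 0.0344). The groups did not overlap, but the margin was small. The call for Itgb5 was lost when TNF 1, TNF 2, TNF 3, Ctrl 1 or Ctrl 2 was left out (limma adjusted p 0.0777, 0.0978, 0.0853, 0.0614 and 0.0724). It was lost as well without a filter (0.0799), with the replicate number as a block (0.0742) and without both Ctrl 1 and TNF 3 (0.136). That makes 8 of 14 alternatives, and Itgb5 kept its direction in each. Within a library, the level of Itgb6 over that of Itgb5 was 1.73, 1.69 and 1.57 in TNF, against 0.576, 0.544 and 0.629 in Ctrl. The order of these β genes was thus turned round in all 6 libraries, with Itgb6 above Itgb5 in TNF and below it in Ctrl. Of the other β partners of αv, Itgb1 is described above, and Itgb8 and Itgb3 were low: Itgb8, which also serves in TGF-β activation, averaged 0.236 ± 0.0250 FPKM in TNF and 0.149 ± 0.0322 FPKM in Ctrl without overlap, and Itgb3 was under 0.1 FPKM in every library. Itga5, the α subunit of the fibronectin receptor, averaged 1.43 ± 0.0963 FPKM in TNF and 1.14 ± 0.0321 FPKM in Ctrl (log2 change 0.18, limma adjusted p = 0.15). Its groups did not overlap, and it passed in limma without the mean-dependent prior variance (adjusted p = 0.0395).

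**Figure D2:**
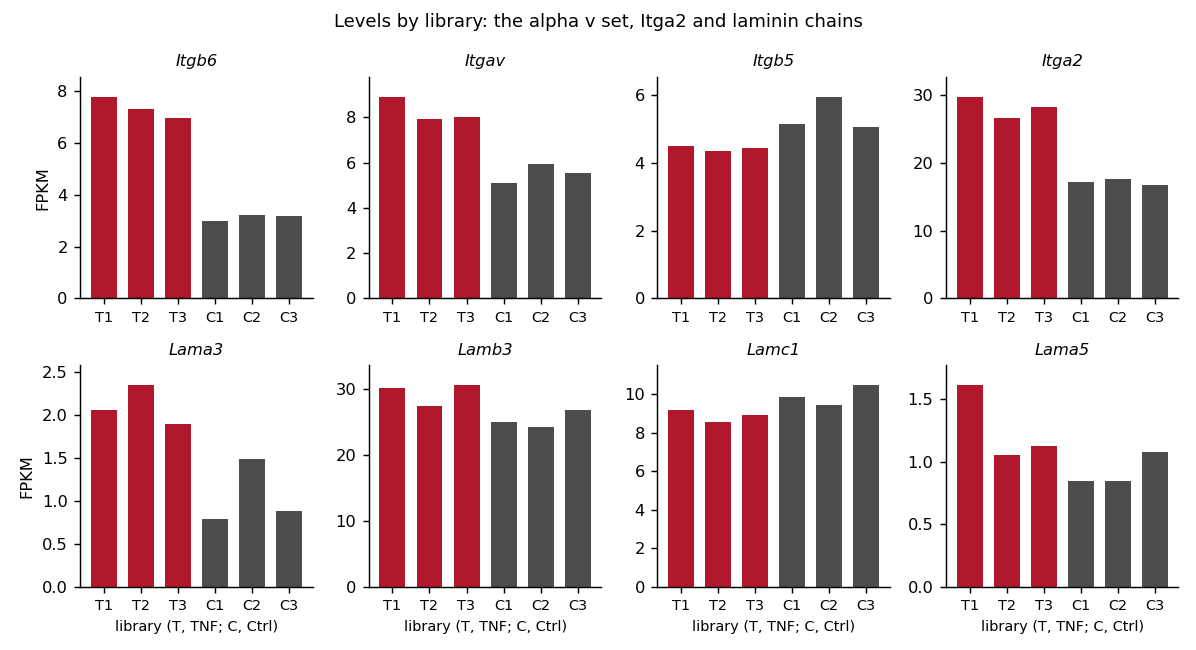
FPKM by library (bars from 0; T, TNF, red, left of C, Ctrl, grey) for the αv subunits Itgb6, Itgav and Itgb5, for Itga2, and for the laminin chains Lama3, Lamb3, Lamc1 and Lama5. The 3 TNF bars exceed the 3 Ctrl bars for Itgb6, Itgav, Itga2, Lama3 and Lamb3, lie under them for Itgb5 and Lamc1, and overlap them for Lama5.

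To show what lies before the starts of these integrin genes, the 100 bases upstream of the start are printed for the 4 called integrins (RefSeq, GRCm38.p6, 5′ to 3′ on the gene's strand). Of the Itgb6 starts, the more upstream one is shown. Capitals mark a motif match: NF-κB consensus, AP-1 (TGANTCA), GC box (GGGCGG) or TATA box (TATAAA), searched on both strands.
Itgb6, chr2:60722604-60722703, minus strand: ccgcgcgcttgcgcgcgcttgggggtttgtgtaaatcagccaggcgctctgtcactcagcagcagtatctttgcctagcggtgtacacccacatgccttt
Itga2, chr13:114932101-114932200, minus strand: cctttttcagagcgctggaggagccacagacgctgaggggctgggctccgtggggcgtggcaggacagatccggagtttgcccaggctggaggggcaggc
Itgav, chr2:83724297-83724396, plus strand: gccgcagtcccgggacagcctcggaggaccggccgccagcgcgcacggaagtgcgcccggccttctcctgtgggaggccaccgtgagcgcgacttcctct
Itgb5, chr16:33829565-33829664, plus strand: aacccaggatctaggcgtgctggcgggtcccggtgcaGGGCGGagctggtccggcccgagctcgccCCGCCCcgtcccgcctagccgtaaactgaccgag

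Of these 4 stretches only that of Itgb5 held a match, a GC box on each strand. Itga2 and Itgav each held a GC box just after the start (positions 3 and 8), outside the printed bases. Windows of 300 bases, from 250 before to 50 after the start, were found for 24 of the 36 subunits (27 windows). The NF-κB consensus was in 3 of these windows, of Itga3 and Lamb3, and in 8.46% of all 32851 windows in the table. Of the subunits that rose, Itgb6, Itga2, Itgav and Lamb3 had windows, and the consensus was found in both windows of Lamb3 and in no window of Itgb6, Itga2 or Itgav. The 2 Lamb3 windows overlap and hold the same match, shown in capitals in 30 bases of the plus strand, chr1:193302007-193302036.
Lamb3: cacccagccaGGGAGTCTCCagaggtgagg
AP-1 was in 3 windows (Itga3, Itga9 and Itgax; 7.81% of all windows), the GC box in 12 (35.7% of all windows) and the TATA box in 0 (13.6% of all windows). A match is a stretch of letters and was not tested as a binding site.

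Of the laminin chains, Lama3 and Lamb3 rose, while Lamc1, Lama5 and Lamb2 did not pass. Lamb3 (ENSMUSG00000026639, chromosome 1, 193207699 to 193343878, plus strand) was at 30.1, 27.4 and 30.5 FPKM in TNF libraries, against 24.9, 24.1 and 26.8 FPKM in Ctrl libraries (log2 change 0.21, SE 0.06, limma adjusted p = 0.0373). The lowest TNF library stood just above the highest Ctrl library. The call for Lamb3 was lost without TNF 1, TNF 3, Ctrl 1 or Ctrl 2 (limma adjusted p 0.112, 0.116, 0.107 and 0.0938), with quantile normalization (0.0515) and with median-ratio scaling (0.0527). It was lost as well without a filter (0.0876), in limma without the mean-dependent prior variance (0.0598) and without both Ctrl 1 and TNF 3 (0.249), so in 9 of 15 alternatives.

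Lama3 (ENSMUSG00000024421, chromosome 18, 12333819 to 12583013, plus strand), the gene of an α chain found in hemidesmosomes with that of Lamb3, was far lower than Lamb3. It was at 2.06, 2.34 and 1.89 FPKM in TNF libraries, against 0.789, 1.49 and 0.883 FPKM in Ctrl libraries (ratio of means 1.99, log2 change 0.61, SE 0.14, limma adjusted p = 0.016). The groups did not overlap, though Ctrl 2 came close to the TNF libraries. The call for Lama3 was lost without TNF 2 (limma adjusted p = 0.0566) and without Ctrl 3, where it stood at the threshold. As a ratio of FPKM, Lama3 was at 0.0720 ± 0.0122 of Lamb3 in TNF and 0.0421 ± 0.0170 in Ctrl.

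Lamc1 (chromosome 1, 153218922 to 153332786, minus strand), the γ chain of most laminins, was at 9.18, 8.58 and 8.94 FPKM in TNF libraries, against 9.87, 9.45 and 10.5 FPKM in Ctrl libraries (log2 change -0.14, SE 0.05, limma adjusted p = 0.0914). All 3 TNF libraries lay below all 3 Ctrl libraries, but the difference did not pass. Lama5, the main α chain of the adult intestinal basement membrane, averaged 1.26 ± 0.303 FPKM in TNF and 0.922 ± 0.137 FPKM in Ctrl, with overlapping groups (log2 change 0.23, limma adjusted p = 0.216). Lamb2 averaged 2.17 ± 0.172 FPKM in TNF and 2.28 ± 0.279 FPKM in Ctrl (log2 change -0.05, limma adjusted p = 0.735). Lamb1, a common β chain, was under the filter with 0.572 ± 0.0889 FPKM in TNF and 0.731 ± 0.143 FPKM in Ctrl.

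**Figure D3:**
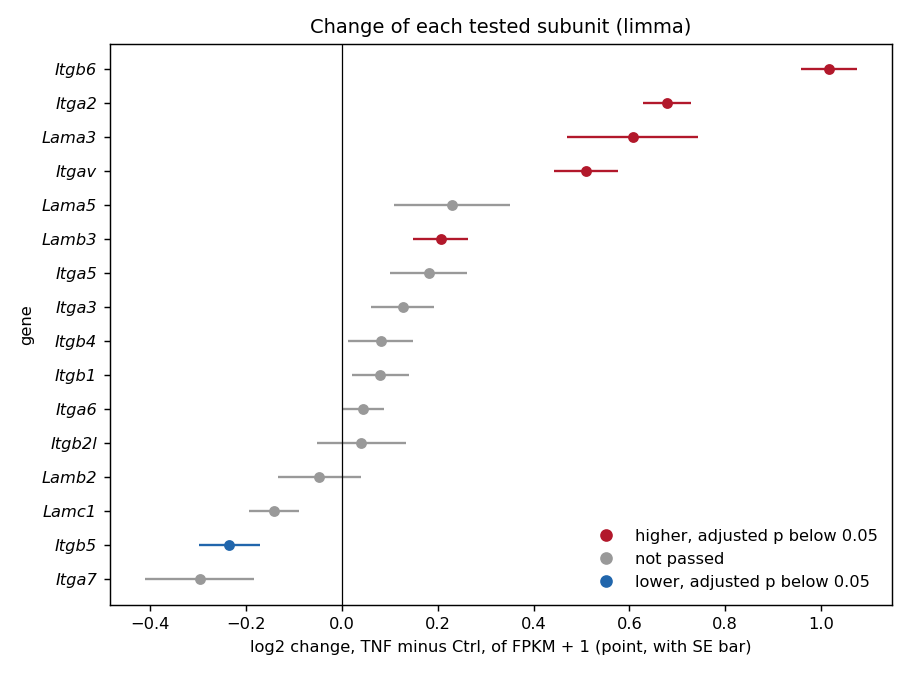
Log2 change of FPKM + 1 (TNF minus Ctrl) with its SE for the 16 tested subunits, in order of size, red where higher and blue where lower at a limma adjusted p below 0.05. Itgb6 stands highest at 1.02, followed by Itga2, Lama3 and Itgav, while Itgb5 at -0.23 is the 1 gene called lower.

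The other tested subunits were low. Itga7, a laminin-binding α subunit best known in muscle, averaged 1.44 ± 0.228 FPKM in TNF and 2.00 ± 0.364 FPKM in Ctrl (log2 change -0.30, SE 0.11, limma adjusted p = 0.1), without overlap between the groups. Itgb2l, a relative of Itgb2, averaged 1.08 ± 0.103 FPKM in TNF and 1.02 ± 0.113 FPKM in Ctrl (log2 change 0.04, limma adjusted p = 0.792). The centromere gene Itgb3bp, which the naming rule also took, averaged 1.17 ± 0.0383 FPKM in TNF and 1.39 ± 0.118 FPKM in Ctrl and did not pass (limma adjusted p = 0.27).

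The remaining 20 subunits averaged less than 1 FPKM and so lay outside the test. In 6 of them the 3 TNF libraries lay above the 3 Ctrl libraries, in 1 (Itga1) below, and in 13 the groups overlapped. The groups stood apart in 15.9% of all 17590 genes in this range, with TNF higher in 10.9%. Lama4, the α chain of laminins around vessels and in mesenchyme, was at 0.730, 0.632 and 0.670 FPKM in TNF libraries, against 0.166, 0.147 and 0.15 FPKM in Ctrl libraries. This was a wide gap at a low level (ratio of means 4.39; two-sided exact permutation p = 0.1, the smallest possible), resting on about 368 fragments in the 3 TNF libraries and 84.4 in the 3 Ctrl libraries. When all genes were fitted without a filter, where 9.21% were called, Lama4 passed (log2 change 0.54, limma adjusted p = 0.00254). Of cells that could carry Lama4, the 6 endothelium markers summed to 0.730 to 0.992 FPKM in TNF and 0.160 to 0.788 FPKM in Ctrl, with 2 of 6 higher in every TNF library. The 8 fibroblast markers summed to 7.66 to 10.3 FPKM in TNF and 10.8 to 17.7 FPKM in Ctrl (0 higher, 4 lower in every TNF library). The 6 smooth muscle markers summed to 1.46 to 1.58 FPKM in TNF and 0.941 to 6.39 FPKM in Ctrl, and all 6 overlapped. Exons of Gm48529 and Pcsk7 overlap 67.9% of the exon length of Tagln, 1 of these 6, so its value cannot be assigned to it alone. No marker of these 3 lists was at 0 throughout, and their part in the Lama4 difference, like that of the glial and neuronal genes, was not tested.

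Itgal, the α subunit of the leukocyte receptor for ICAM-1, was at 0.519, 0.487 and 0.482 FPKM in TNF libraries, against 0.116, 0.0794 and 0.161 FPKM in Ctrl libraries. The groups were well apart (ratio of means 4.18; exact permutation p = 0.1; limma adjusted p = 0.00437 without a filter), on about 121 fragments in TNF and 29.1 in Ctrl. The lymphocyte integrin genes Itgae, Itgb7 and Itga4 also lay higher in every TNF library, with ratios of means of 1.61, 1.60 and 1.82. None of these passed without a filter (limma adjusted p 0.22, 0.149 and 0.0522). Of the 10 T cell and intraepithelial lymphocyte markers, 9 were higher in every TNF library, the exception being Cd8a. Among all genes under a mean of 1 FPKM, where 8 of the 10 lie, 10.9% were higher in every TNF library. The 10 markers summed to 8.04 to 9.92 FPKM in TNF and 1.14 to 1.93 FPKM in Ctrl. Cd3e averaged 0.487 ± 0.1 FPKM in TNF and 0.0529 ± 0.0244 FPKM in Ctrl. None of the 10 was at 0 in every library of a group, and their part in the values of Itgal, Itgae, Itgb7 and Itga4 was not tested.

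Itgam and Itgb2, which together encode the complement receptor of macrophages and neutrophils, varied within both groups. Itgam was at 0.831, 1.23 and 0.180 FPKM in TNF libraries, against 0.216, 0.618 and 0.500 FPKM in Ctrl libraries. Itgb2 was at 0.988, 1.42 and 0.547 FPKM in TNF libraries, against 0.325, 1.02 and 0.858 FPKM in Ctrl libraries. TNF 3 and Ctrl 1 were the low libraries for both genes, and the groups overlapped (exact permutation p = 0.5 for each). The same 2 libraries had the least of the macrophage gene Lyz2, at 2.72 FPKM in TNF 3 and 4.65 FPKM in Ctrl 1, against 15.6 to 16.0 FPKM in the rest. Without these 2 libraries, the ratio of mean FPKM was 1.85 for Itgam, 1.28 for Itgb2 and 0.993 for Lyz2. They were left out for their low Lyz2, so the Lyz2 ratio near 1 follows from the choice. The ratios rest on 2 libraries per group, are given as a description and were not tested. The 9 macrophage and monocyte markers summed to 34.4 to 59.6 FPKM in TNF and 30.4 to 50.3 FPKM in Ctrl. Of the 6 tested, Cd14 and Mrc1 rose and 4 did not pass (33.3% called, against 24.0% of all tested genes). In 7 of the 9 the groups overlapped. Among these 7, Lyz2, C1qa, C1qb and Fcgr3 had lower means in TNF, and Cd68, Csf1r and Adgre1 had higher means. Exons of Gm49368 overlap 70.0% of the exon length of Itgam, so its value cannot be assigned to it alone.

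Of the others, Itgax, a dendritic cell and macrophage subunit, stayed at or under 0.108 FPKM in every library. The 5 dendritic cell markers in the table summed to 0.200 to 0.305 FPKM in TNF and 0.0196 to 0.133 FPKM in Ctrl. Of these, Batf3 was at 0 in every library but TNF 1. Itga2b, the platelet subunit, averaged 0.0821 ± 0.0723 FPKM in TNF and 0.129 ± 0.00346 FPKM in Ctrl. The 4 platelet markers in the table summed to 0.662 to 0.747 FPKM in TNF and 0.237 to 1.02 FPKM in Ctrl. Of these, Ppbp was at 0 in every library but TNF 2, and exons of Gm49601 and Sept5 overlap 92.9% of the exon length of Gp1bb. Itga9 and Itga10 had overlapping groups at 0.0816 to 0.468 FPKM, and exons of Gm42957 overlap 33.5% of the exon length of Itga10. The 7 subunits with a mean under 0.1 FPKM (Itgax, Itga8, Itga11, Itgb3, Lama1, Lama2 and Lamc3) rested on at most 24.5 fragments over the 6 libraries, and no difference was detectable at this depth. Lama1, the α chain of early embryonic laminin, thus stayed near 0 in both groups.

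**Figure D4:**
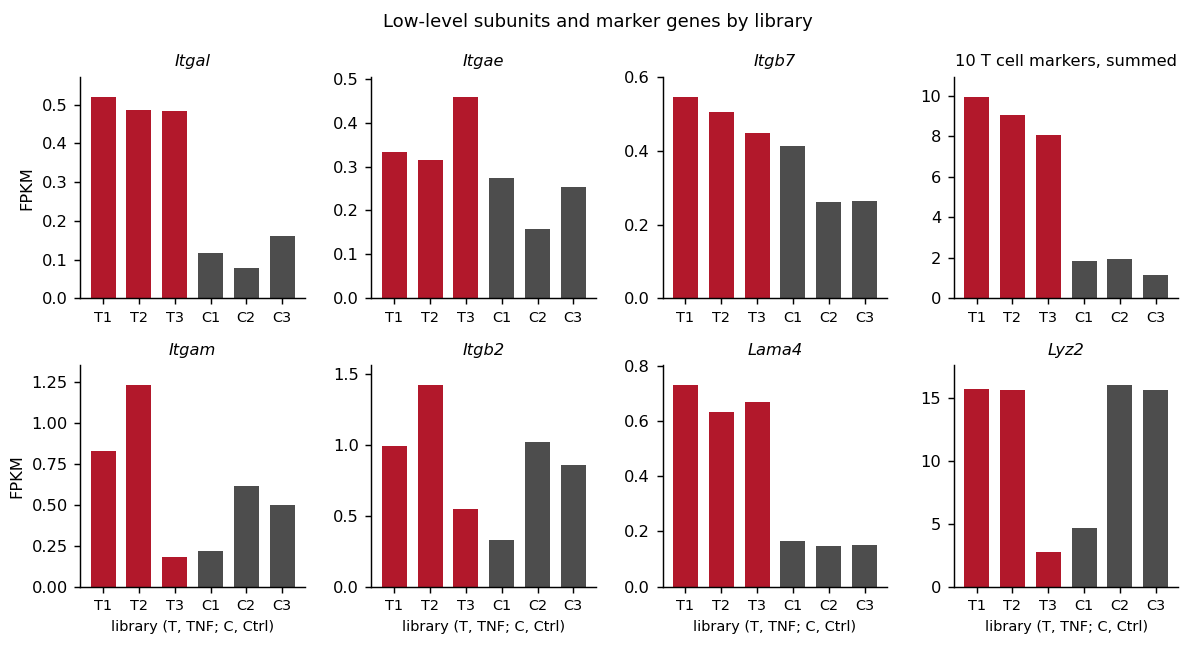
FPKM by library (bars from 0; T, TNF, red, left of C, Ctrl, grey) for the low-level subunits Itgal, Itgae, Itgb7, Itgam, Itgb2 and Lama4, with the sum of 10 T cell markers and the macrophage gene Lyz2. Itgal, Lama4 and the T cell sum are higher in all 3 TNF libraries, whereas Itgam and Itgb2 are lowest in T3 and C1, as is Lyz2.

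Genes that work with integrins and laminins were taken from 4 lists (57 genes, 56 in the table, 40 tested). The lists were chosen with earlier results of these data known, so the share called can follow from the choice and is a description. Of the 40, 16 rose, 2 fell and 22 did not pass, or 45.0% called against 24.0% of all tested genes. The surface ligands and companions of integrins were called most often: 6 of 7 rose and none fell, with a median log2 change of 0.58. Icam1, the ligand of the leukocyte receptor that Itgal is part of, rose 16.7-fold as a ratio of mean FPKM (limma adjusted p = 3.52e-07). Exons of Gm47079 overlap 11.7% of its exon length. Cd47, a membrane protein that associates with αv integrins, was at 17.8, 17.2 and 16.5 FPKM in TNF libraries, against 7.94, 8.07 and 7.87 FPKM in Ctrl libraries (log2 change 1.02, limma adjusted p = 7.34e-06). F11r and the tetraspanin gene Cd82 rose by 0.58 and 0.60 on the log2 scale. Cd81 rose by 0.15, a call that was lost in 11 of 15 alternatives, among them each fit without TNF 1, TNF 2, Ctrl 1, Ctrl 2 or Ctrl 3 (limma adjusted p 0.111, 0.15, 0.104, 0.0842 and 0.111). Cdh1, which encodes the E-cadherin bound by the product of Itgae, did not pass (log2 change 0.12, limma adjusted p = 0.0874). Vcam1, the ligand of α4 integrins, was under the filter at 0.970 ± 0.0891 FPKM in TNF and 0.159 ± 0.101 FPKM in Ctrl.

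Of the activators and cytoplasmic partners, 6 of 16 rose, 1 fell and 9 did not pass (median log2 change 0.16). That is 43.8% called, against 24.0% of all tested genes, in a list likewise chosen with earlier results known. The actin-linked genes Flna and Zyx rose most. Flna, which encodes a filamin that binds β tails, was at 56.5, 54.3 and 56.7 FPKM in TNF libraries, against 27.5, 27.6 and 28.9 FPKM in Ctrl libraries (log2 change 0.97, limma adjusted p = 5.57e-06). Zyx, a focal adhesion gene, averaged 30.5 ± 0.960 FPKM in TNF and 14.6 ± 1.27 FPKM in Ctrl (log2 change 1.02, limma adjusted p = 3.88e-05). Vinculin (Vcl) and the epithelial kindlin gene Fermt1, whose product activates β1 integrins, rose by 0.49 and 0.32 on the log2 scale. Exons of Ap3m1 overlap 25.5% of the exon length of Vcl, so part of its value can come from that gene. Of the others that rose, Pxn (paxillin) lost its call without TNF 2, TNF 3, Ctrl 1 or Ctrl 2 (limma adjusted p 0.0595, 0.0669, 0.0666 and 0.0552). The Pxn call was lost as well without a filter (0.0521) and without both Ctrl 1 and TNF 3 (0.169), and it held in 9 of 15 alternatives. Tln1, the main talin gene, did not pass (log2 change 0.08, limma adjusted p = 0.346). Its relative Tln2 fell by 0.23, a call that was lost without any 1 library (limma adjusted p 0.0539 to 0.111) and held in 5 of 14 alternatives.

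Among basement membrane partners, 2 of 10 tested genes rose, 1 fell and 7 did not pass (median log2 change -0.08). That is 30% called, against 24.0% of all tested genes. Nid2, a nidogen that links laminin to collagen IV, was at 9.23, 9.87 and 10.3 FPKM in TNF libraries, against 4.46, 4.66 and 5.14 FPKM in Ctrl libraries (log2 change 0.91, limma adjusted p = 6.5e-05). Agrn, the laminin-binding proteoglycan agrin, rose by 0.52 (limma adjusted p = 0.0018). Nid1, the other nidogen gene, averaged 1.40 ± 0.0589 FPKM in TNF and 1.55 ± 0.0879 FPKM in Ctrl and did not pass, and neither did the collagen IV genes Col4a1 and Col4a2. Ntn4, a laminin-related netrin, fell by 0.34 (limma adjusted p = 0.0295), a call that was lost without TNF 1, TNF 3, Ctrl 1 or Ctrl 3 (0.0880, 0.0730, 0.0973 and 0.0802). The Ntn4 call was lost as well without a filter (0.0852), with the replicate number as a block (0.0767) and without both Ctrl 1 and TNF 3 (0.184). It held in 7 of 14 alternatives. Of 7 tested hemidesmosome genes and other laminin receptors, 2 rose and none fell (28.6% called, median log2 change 0.04). Bcam, a receptor for the laminin α5 chain, averaged 3.86 ± 0.206 FPKM in TNF and 2.47 ± 0.147 FPKM in Ctrl (log2 change 0.48, limma adjusted p = 0.00153). Cd151, the tetraspanin partner of laminin-binding integrins, averaged 27.8 ± 0.685 FPKM in TNF and 23.6 ± 1.06 FPKM in Ctrl. Its log2 change was small at 0.23 (limma adjusted p = 0.0103), and its call was lost without both Ctrl 1 and TNF 3 (0.125). Plec, Dst and Dag1 did not pass, and Col17a1, a defining collagen of skin hemidesmosomes, was listed at 0 in all 3 Ctrl libraries and was under 0.04 FPKM in all 3 TNF libraries.

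**Figure D5:**
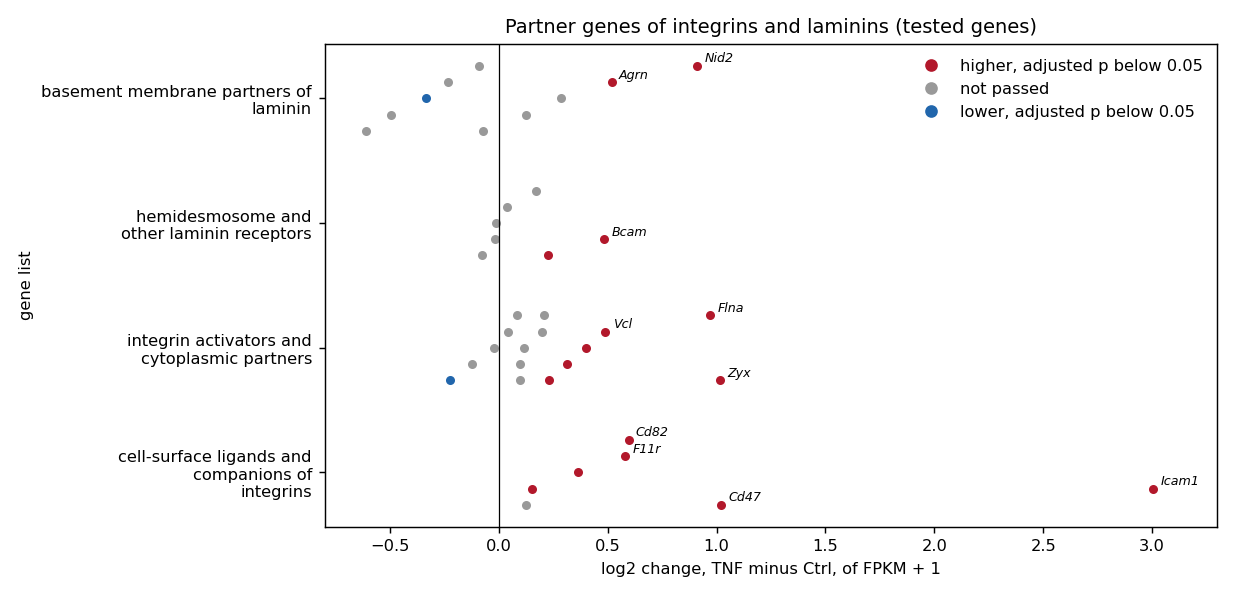
Log2 change of FPKM + 1 (TNF minus Ctrl) of the 40 tested partner genes in their 4 lists, with 1 point per gene, red where higher and blue where lower at a limma adjusted p below 0.05. Icam1 lies far to the right at 3.00, and Cd47, Zyx, Flna and Nid2 lie near 1.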

How the data were processed

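RNA was sequenced from 6 libraries (3 TNF, 3 Ctrl). Per the submitters' processing notes, cutadapt (version 1.9), FastQC and GRCm38 were used; no source used here names the aligner, counter, strand setting or annotation. The authors deposited 1 normalized value per gene, read as FPKM because value times exon length (GENCODE M21) summed to 9.59e+08 to 9.64e+08 per library. One fragment was taken as the commonest low value of single-exon genes; 45.3% to 48.6% of low values lay within 0.1 of whole reads (20% for an unrelated step), so counts were not recovered.

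The 12350 genes averaging 1 FPKM or more were tested on log2(FPKM + 1), which understates changes of low genes, with limma (version 3.58.1, R 4.3.3; mean-dependent prior variance, two-sided, Benjamini-Hochberg over all tested genes, threshold 0.05), and the fit was tested on simulated data. Of the genes the rule and lists took, 1 subunit and 2 markers are not reported here and are left out of their counts. Every other tested subunit is named; partners are named if called (up to 4 per list by p) or as direct partners of a member. Members and lists were chosen with earlier results of these data known; the list of glial and neuronal genes was added after their values were seen. Alternatives covered pseudocount, filter, scaling, prior variance, replicate block and left-out libraries.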

Additional observations from a re-analysis of the deposited data

How the results depend on the processing

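Under 15 alternative fits, Itga2, Itgb6 and Itgav kept their direction and their call in each one, with adjusted p at most 0.0183. The count of subunits that rose was 5, was 3 without both Ctrl 1 and TNF 3 and was 4 or 5 in the other alternatives. The genes behind a like count could differ. Without a filter (36 tested), the 5 were Itga2, Itgal, Itgav, Itgb6 and Lama4. In limma without the mean-dependent prior variance, the 5 held Itga5 in place of Lamb3. The count of partner genes that rose was between 12 and 17, and the 17 without a filter included Lims2, Vcam1 and Vtn. The count of subunits that fell was 0 in place of 1 (Itgb5) without a filter, with a filter at 5 FPKM and without both Ctrl 1 and TNF 3, and 0 to 1 when 1 library was left out. The count of partner genes that fell was 0 in place of 2 under these same 3 settings and 0 to 1 when 1 library was left out. The filter at 5 FPKM removed Itgb5, Lama3, Ntn4 and Tln2 from the test; for the others the cause was not tested. Over all genes, leaving out 1 library gave 913 (without Ctrl 1) to 1177 lower genes in place of 1374, and leaving out both Ctrl 1 and TNF 3 gave 821 higher and 596 lower genes. The call for Lama3 was also lost without a filter (adjusted p = 0.0641) and without both libraries (0.0866). Small changes of uncalled genes turned sign: Lamb2 ranged from -0.099 to 0.019 (log2) when 1 library was left out, with 0.019 without Ctrl 1, and Itgb2l was -0.0070 with quantile normalization and -0.026 without both libraries.

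Same-numbered libraries showed no shared deviation from their group means. These deviations correlated at -0.0043, -0.101 and 0.0053 for numbers 1, 2 and 3, and not every library correlated best with its own number. Such values cannot tell whether libraries of 1 number share a mouse or culture, which is not known. With the replicate number as a block, 5 subunits rose and 0 fell, 15 partner genes rose and 0 fell, and 1256 of all genes rose and 1004 fell. Members under 0.1 FPKM rest on too few fragments to compare.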
